A study of Mus musculus with 20 samples.

Results

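Kinesins are motor proteins that use ATP to step along microtubules, and most of them move toward the plus end. In neurons the plus ends of axonal microtubules point away from the cell body, so kinesins of the kinesin-1, kinesin-2 and kinesin-3 families drive outward transport of vesicles, mitochondria and cytoskeletal cargo. Other kinesins act in the mitotic spindle, in cilia, or as enzymes that shorten microtubule ends. The kinesin genes described here were the protein-coding genes whose mouse symbol, looked up from the Ensembl identifier, begins with Kif and a digit. The rule found 36 of the 19463 genes in the expression table, of 39 protein-coding genes that the annotation lists under such a name. Kif12, Kif28 and Kif2b were the other 3, and they were not analysed here. The name rule also takes in Kif1bp, which encodes a protein that binds kinesin motor domains and has no motor of its own.

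Whole-brain RNA of male mice was sequenced at 3 weeks (P21) and 10 weeks (P70) in Katnal2-KO mice and wild-type (WT) mice, with 5 mice in each of the 4 groups and 20 in all. Katnal2 encodes a katanin-like protein, related to enzymes that cut microtubules. KO mice were homozygous for a frame-shifting deletion of exon 3. The line came from a EUCOMM Katnal2tm1a embryonic stem cell allele, bred to Protamine-Flp mice to give Katnal2fl/+ and then treated as embryos with HTNC, a Cre recombinase that enters cells. All mice were on the C57BL/6J background, and the WT mice carried none of these alleles by their labels. The deletion was present in every cell of the body and from the embryo onward, so the comparison does not separate brain cell types or stages of life. Because whole brains were used, a lower level of a gene can mean fewer cells of a type or less RNA per cell, and these cannot be told apart. The labels number the mice of a group 1 to 5 and say nothing of litters or of sequencing runs, so p-values measure the spread between these mice.

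Values are DESeq2-normalized counts, which are read counts divided by factors that make libraries comparable. They were analysed on the scale of log2(value + 1), which understates the change of genes with low values. The depth behind each library, estimated from the spacing of the lowest values, was about 25700000 to 35700000 reads at P21 (median 33000000) and 23400000 to 26700000 at P70 (median 24400000). Depth thus moved with age, and its part in the age differences was not tested. Katnal2 transcript, which the deletion does not remove, was 89.0 ± 8.72 in P21 KO and 107 ± 7.38 in P21 WT mice (mean ± SD, n = 5 each; two-sided exact permutation p = 0.00794, the smallest this design allows). It was 105 ± 11.8 in P70 KO and 122 ± 16.4 in P70 WT mice (exact permutation p = 0.0794). The P70 KO replicate 5 and P70 WT replicate 5 mice stood apart from the rest. Their root mean square deviation from their group mean over all genes was 0.532 and 0.438 on the log2 scale, against 0.302 to 0.329 in the other 8 P70 mice. Age calls that change without both of them are given beside the result, and the differences that turn sign are listed with the age comparison.

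**Figure D1:**
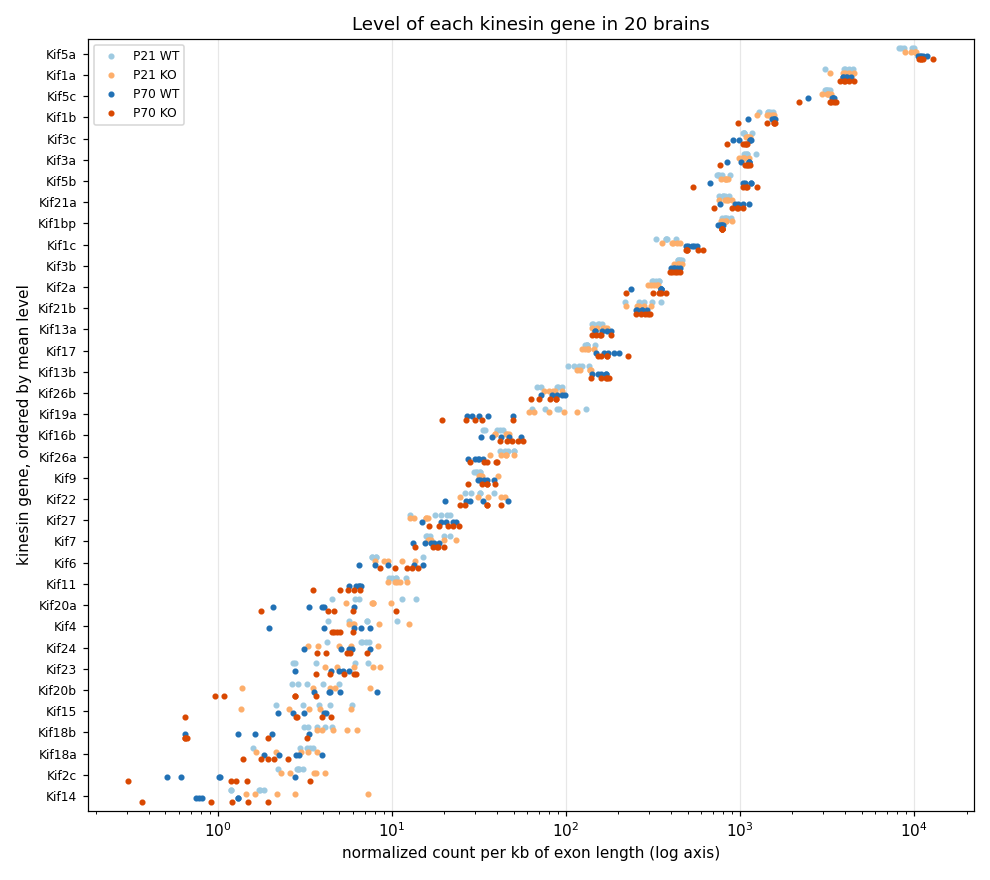
Normalized count per kb of exon length (log axis) of each of the 36 kinesin genes, 1 point per mouse, coloured by group and ordered by the mean over 20 mice. Kif5a sits highest with a mean of 10296 per kb and Kif14 lowest with 1.69.

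Levels of different genes were compared per kb of exon length, as the mean ± SD over the 20 mice. The kinesin-1 heavy chains, which carry vesicles, mitochondria and neurofilament proteins along axons, made up 55.2% ± 2.31 of the summed kinesin level. Kif5a was at 10296 ± 1167 per kb and made up 39.5% ± 2.89 of the sum, Kif5c was at 3187 ± 338 per kb, and Kif5b at 905 ± 190.0 per kb. Kinesin-3 motors made up 24.1% ± 1.34, most of it Kif1a at 4019.8 ± 356 per kb and Kif1b at 1448 ± 170.1 per kb, both of which carry precursors of synaptic vesicles. Kinesin-2 genes made up 10.5% ± 0.821. The kinesin-4 genes of neurons and the primary cilium made up 4.51% ± 0.290, the kinesin-13 genes Kif2a and Kif24 1.27% ± 0.122, and Kif1bp with Kif26a and Kif26b 3.59% ± 0.366. The 4 motile cilia genes came to 0.477% ± 0.144, and the 11 mitotic kinesins together to 0.292% ± 0.0624.

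In the order by level per kb, Kif5a, Kif5c, Kif1bp, Kif3b, Kif21b and Kif13b were higher in every mouse than the next gene in any mouse. Per kb of the longest coding transcript instead, Kif1bp was at 1503 in place of 805 and came above Kif3a and Kif3c. All other neighbours overlapped between mice, among them Kif1a with Kif5c and the run from Kif1b through Kif3c, Kif3a and Kif5b to Kif21a. Within groups, the median SD of a kinesin gene was 0.200 on the log2 scale against 0.203 over all genes tested. Spread was largest among the rare mitotic members, where the within-group SD reached 0.725 for Kif15, and smallest for Kif1bp at 0.053 and Kif3b at 0.057. Shared sequence between members was slight: at most 0.567% of a member's 31-base stretches occurred in another kinesin gene, and Kif5a and Kif5c shared none with any gene. Several members share exon sequence with overlapping or copied genes, and their counts are less certain for that reason. These were Kif3c (40.2% of stretches, mostly with 1110002L01Rik), Kif20a (26.7%, with Cdc23), Kif2a (22.1%, mostly with Dimt1), Kif7 (18.1%) and Kif4 (15.7%, mostly with Pdzd11).

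From P21 to P70, 4 cargo motors rose, and a spindle motor, a ciliary motor and Kif26a fell, in both genotypes. In WT mice, 7 of the 35 kinesin genes tested (20%) passed the test, 4 higher and 3 lower at P70, where 11.1% of all 17637 genes did, 5.53% higher and 5.62% lower. In KO mice it was 9 of 35 (25.7%), 4 higher and 5 lower, where 11.9% of all genes did, 5.47% higher and 6.4% lower. Kif18b, among the 5 lower, had a mean of at least 10 only through its P21 values, so the filter favoured its fall. Kif5a, Kif1c, Kif13b and Kif17 rose and Kif19a, Kif11 and Kif26a fell in both genotypes, so that 7 of 35 were called in both with the same direction where 7.8% of all genes were, 3.67% higher and 4.12% lower. Of the KO calls, those of Kif26a and Kif14 were each lost in 15 of 20 fits that left 1 mouse out. That of Kif5a was lost in 6 of 20. Tests were by limma with Benjamini-Hochberg adjustment over all genes with a mean of at least 10, which left out Kif2c, with called meaning an adjusted p under 0.05. The P70 and P21 mice did not overlap at all in 7 of 35 kinesin genes in WT, against 10.8% of all genes, and in 8 of 35 in KO, against 10.9%. Without both replicate 5 mice of P70, 12 were called in WT, 7 higher and 5 lower, where 21.1% of all genes were (11.2% higher, 9.97% lower), and 11 in KO, 7 higher and 4 lower, where 22% were (10.9% higher, 11.1% lower). In that setting 6 were called higher and 4 lower in both genotypes, where 7.53% and 6.99% of all genes were, 14.5% in all. Kif18b, whose fall the filter favoured, was among the 4 lower. Some small differences, none of them called with all mice or without the pair, turned from below to above 0: Kif2a (-0.015 to 0.097) and Kif3c (-0.018 to 0.039) in WT, and Kif2a (-0.0092 to 0.12), Kif5c (-0.027 to 0.10), Kif1b (-0.041 to 0.092), Kif3a (-0.029 to 0.076), Kif13a (-0.011 to 0.0085) and Kif15 (-0.28 to 0.17) in KO.

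**Figure D2:**
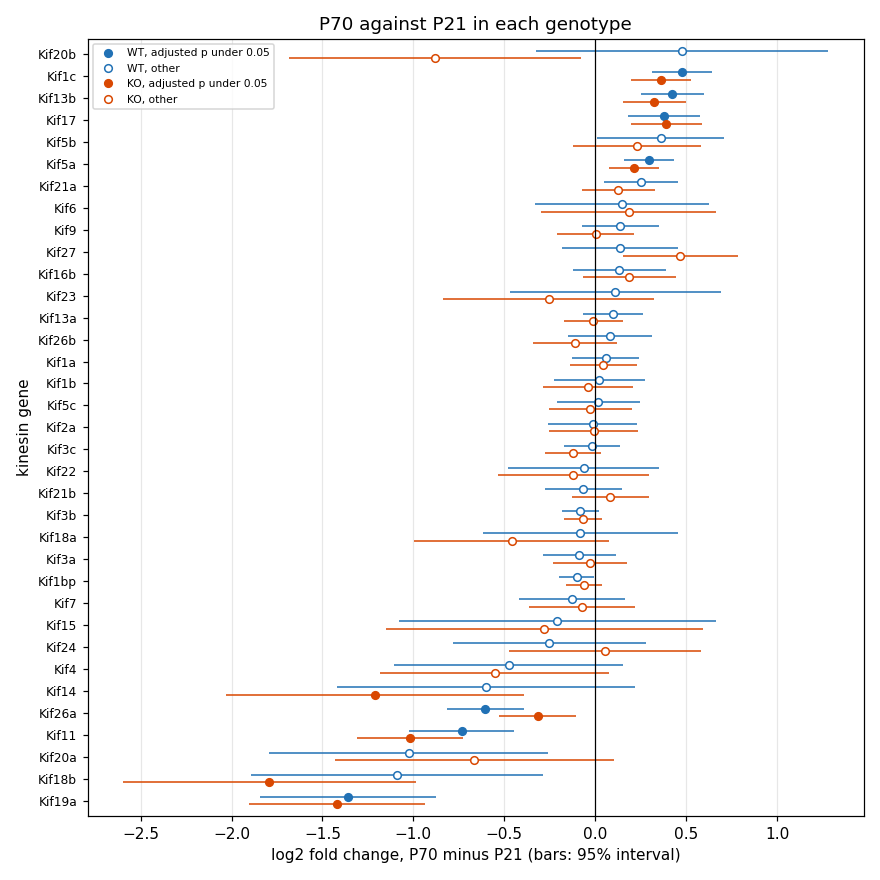
log2 fold change (P70 minus P21) of the 35 kinesin genes tested, in WT (blue) and KO (orange) mice; points are estimates, bars are 95% intervals and filled points have a limma adjusted p under 0.05. Kif1c, Kif13b, Kif17 and Kif5a lie to the right with filled points and Kif26a, Kif11 and Kif19a to the left with filled points in both genotypes.

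Among the kinesin-1 heavy chains, Kif5a was higher at P70. Kif5a stood at 67910.0, 60988, 57609, 58998 and 69529 in the 5 P21 WT mice, in the order of their replicate numbers, and at 82686, 78231, 75849.7, 73267 and 76276 in the P70 WT mice. In KO mice Kif5a was 70519.6, 67126, 71219, 61652 and 71155 at P21 and 79146, 90036, 74242, 76549 and 76459 at P70. Each P70 mouse lay above each P21 mouse of its genotype. The log2 fold change was 0.30 ± 0.066 (SE) in WT, a 1.23-fold rise (limma adjusted p = 0.00489), and 0.21 ± 0.066 in KO (limma adjusted p = 0.0394). The KO call rested on single mice: it was lost in 6 of 20 fits that left 1 mouse out, namely P21 KO replicates 1, 2 and 4 and P70 KO replicates 1, 2 and 4, with limma adjusted p from 0.0550 to 0.123.

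Kif5b, the kinesin-1 heavy chain made in most tissues, was split by the replicate 5 mice. Kif5b was 6247, 5942, 6045, 5881 and 7015 in P21 WT and 9198, 9169, 8514, 8347 and 5358 in P70 WT mice. The KO mice had Kif5b values of 6766, 6537, 6598, 6231 and 6651 at P21 and 8763, 9923, 8336, 8619 and 4300.4 at P70. The first 4 P70 mice of each genotype lay above all P21 mice of that genotype, and both replicate 5 mice lay below all of them. With all mice the log2 fold change was 0.36 ± 0.17 in WT (limma adjusted p = 0.191) and 0.23 ± 0.17 in KO (limma adjusted p = 0.435). With both replicate 5 mice left out, Kif5b rose by 0.50 in WT (limma adjusted p = 3.56e-06) and by 0.44 in KO (limma adjusted p = 1.33e-05).

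Kif5c, the other neuronal heavy chain, did not pass the test with all mice. Its values were 23606, 22222, 21942, 22465 and 22959.8 in P21 WT and 24723, 24168, 24489.8, 24479.8 and 17531 in P70 WT mice. In KO mice Kif5c was 22656, 22802, 21206, 23922 and 23009 at P21 and 24768, 25566, 23515, 23771 and 15496 at P70. The replicate 5 mice of P70 were again the lowest, and the other 4 P70 mice lay above all P21 mice in WT and overlapped them in KO. The 95% interval of the log2 fold change was -0.21 to 0.25 in WT and -0.26 to 0.20 in KO. Without both replicate 5 mice the WT difference was 0.11 (limma adjusted p = 0.0448) and the KO difference 0.10 (limma adjusted p = 0.0622), which was not called.

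In the kinesin-3 family 2 of 6 members rose in each genotype, where 5.53% of all genes rose in WT and 5.47% in KO. Without both replicate 5 mice of P70 it was again 2 of 6 in each, where 11.2% and 10.9% of all genes rose. Kif1c, which carries vesicles between compartments of the secretory route, was 2784, 2725, 2749, 2407 and 3117 in P21 WT and 3935, 3829.9, 3651, 3563 and 4135 in P70 WT mice. Kif1c in KO mice was 3005, 3168, 3309, 2601 and 2975 at P21 and 3603, 4161, 3549.7, 3609 and 4431 at P70. The ages did not overlap in either genotype. P70 minus P21 was, in log2 units, 0.47 ± 0.079 in WT, 1.39-fold (limma adjusted p = 0.000434), and 0.36 ± 0.079 in KO, 1.28-fold (limma adjusted p = 0.00429).

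Kif13b, a motor that binds the scaffold protein Dlg, was 1600.3, 1546, 1335, 1456 and 1775 in P21 WT and 2199, 2067, 2000.4, 2206 and 1845 in P70 WT mice. Its KO values were 1808, 1778, 1515, 1565 and 1794 at P21 and 2063, 2226, 2197, 2309 and 1809 at P70. Every P70 mouse was above every P21 mouse of its genotype, with the replicate 5 mice lowest at P70. As a log2 fold change the difference was 0.42 ± 0.083 in WT (limma adjusted p = 0.00176) and 0.32 ± 0.083 in KO (limma adjusted p = 0.0129).

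The most abundant kinesin-3, Kif1a, was 37191, 41313, 28583, 39350.4 and 36898 in P21 WT and 36374, 38379, 37975, 40546 and 36248 in P70 WT mice. Kif1a in KO mice was 37627, 36361, 30797, 41993 and 39296 at P21 and 41942, 39481, 35183, 37504 and 37059 at P70. The ages overlapped in both genotypes, and replicate 3 was the lowest P21 mouse in each. The 95% interval of the log2 fold change was -0.13 to 0.24 in WT and -0.14 to 0.23 in KO. The other members, Kif1b, Kif13a and the endosome motor Kif16b, had log2 fold changes from 0.021 to 0.13 in WT and from -0.041 to 0.19 in KO, none called.

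Of the 4 kinesin-2 genes, 1 rose in both genotypes, where 3.67% of all genes did (7.53% without both replicate 5 mice of P70). Kif17, a kinesin-2 that forms homodimers and moves cargo in dendrites and cilia, was 673, 603, 608, 590.0 and 605 in P21 WT and 763, 677, 796, 860.5 and 919 in P70 WT mice. In KO mice Kif17 was 613, 615, 569.7, 590.5 and 665 at P21 and 702, 724, 787, 793 and 1035 at P70. The ages did not overlap, and the replicate 5 mice were the highest at P70 in both genotypes. The log2 fold change was 0.38 ± 0.095 in WT, 1.30-fold (limma adjusted p = 0.0117), and 0.39 ± 0.095 in KO, 1.31-fold (limma adjusted p = 0.00888). Once both replicate 5 mice were left out it was 0.33 in WT and 0.30 in KO, and both calls held (limma adjusted p = 0.00199 and 0.00362).

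Kif3a, Kif3b and Kif3c, the heavy chains of the kinesin-2 motors that carry cargo in axons and build cilia, were not called. Kif3c and Kif3a were level per kb of exon length, at 1071 ± 82.3 and 1059 ± 103, and per kb of the longest coding transcript Kif3a was the higher, at 1202 against 1168. Kif3c was 7829, 7764, 7838, 8731 and 7734 in P21 WT and 7328, 8458, 8463, 8572 and 6716 in P70 WT mice. Kif3c in KO mice was 8136, 8242, 8053, 8354 and 8413 at P21 and 7949, 8146, 7675, 8004 and 6246 at P70. The lowest P70 mouse was replicate 5 in both genotypes, and the ages overlapped. The log2 fold change of Kif3c had a 95% interval of -0.17 to 0.14 in WT and -0.28 to 0.034 in KO. Kif3a had -0.29 to 0.11 and -0.23 to 0.17, and Kif3b -0.18 to 0.022 and -0.17 to 0.037.

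No kinesin-4 or kinesin-13 gene outside mitosis was called with all mice. Kif21a, a kinesin-4 that slows microtubule growth, was 5179, 5178, 5601, 4923 and 5309 in P21 WT and 6035, 6765, 6342, 7303 and 4970.5 in P70 WT mice. In KO mice Kif21a was 5276, 5479, 4892, 5492 and 5820.3 at P21 and 6735, 6194, 5811, 6328 and 4573 at P70. The first 4 P70 WT mice lay above all P21 WT mice, and replicate 5 was near the bottom. P70 minus P21 was, in log2 units, 0.25 ± 0.097 in WT (limma adjusted p = 0.102) and 0.13 ± 0.097 in KO (limma adjusted p = 0.459). Leaving out both replicate 5 mice, Kif21a rose by 0.33 in WT (limma adjusted p = 0.000461) and by 0.22 in KO (limma adjusted p = 0.0117).

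Kif2a, a kinesin-13 that takes tubulin off microtubule ends, was 2092, 2017, 1985, 2195 and 2184 in P21 WT and 2238, 2238, 2246, 2233 and 1518 in P70 WT mice. Its KO values were 2127, 1971, 1895, 2165 and 2040.4 at P21 and 2394, 2201, 2024, 2238 and 1423 at P70. The replicate 5 mice of P70 were far below all others of their genotype. The 95% interval of the log2 fold change was -0.26 to 0.23 in WT and -0.26 to 0.24 in KO. Kif21b, Kif7, which acts in hedgehog signalling at the tip of the primary cilium, and Kif24, a centriole protein, had log2 fold changes from -0.25 to -0.065 in WT and from -0.073 to 0.082 in KO.

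The mitotic kinesins were low throughout, and most of their log2 fold changes from P21 to P70 were below 0. Of the 10 tested, 1 was called lower in WT and 3 in KO, where 5.62% and 6.4% of all genes were, and none was called higher. Kif18b, 1 of the 3 in KO, reached the limit on the mean only through its P21 values. Their log2 fold changes were below 0 in 8 of 10 in WT (median -0.34) and in 10 of 10 in KO (median -0.61), where the median over all genes was 0.0013 and -0.010. Of all 17637 genes, 8782 in WT and 9173 in KO were below 0. The KO difference of Kif15 was above 0 without both replicate 5 mice. Of 17 cycling-cell markers tested (18 listed) 5 fell in WT, and 4 fell and 1 rose in KO, where 5.62% and 6.4% of all genes fell. Without both replicate 5 mice the KO counts became 6 and 0, where 11.1% of all genes fell and 10.9% rose. Their summed level ranged from 853 to 1064 in P21 WT and 702 to 827 in P70 WT mice, and from 950.5 to 1037 in P21 KO and 737 to 812 in P70 KO mice. No gene of that list, Mki67 and Top2a included, was at 0 in any mouse. The part of dividing cells in the kinesin difference was not tested.

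Kif11, the tetrameric motor that pushes spindle poles apart, was 79.1, 75.0, 71.7, 89.7 and 78.8 in P21 WT and 48.2, 42.1, 49.6, 48.2 and 46.4 in P70 WT mice. Kif11 in KO mice was 83.3, 78.0, 91.1, 80.2 and 70.5 at P21 and 37.4, 49.0, 42.0, 44.9 and 26.3 at P70. The ages did not overlap in either genotype, and P70 KO replicate 5 was the lowest of all 20 mice. The log2 fold change was -0.74 ± 0.14 in WT, 1.66-fold lower at P70 (limma adjusted p = 0.00136), and -1.02 ± 0.14 in KO, 2.03-fold lower (limma adjusted p = 4.61e-05). Its mean was 78.9 ± 6.78 in P21 WT and 46.9 ± 2.89 in P70 WT mice (SD, n = 5 each).

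With all mice, Kif18b and Kif14, named here after their values were seen, were called lower at P70 in KO and not in WT. Their age difference was not shown to differ between genotypes, since neither interaction was called. Kif18b, which shortens astral microtubules, was 16.2, 11.8, 11.2, 14.8 and 13.3 in P21 WT and 5.84, 4.64, 2.32, 12.0 and 7.27 in P70 WT mice. Kif18b in KO mice was 16.4, 14.1, 22.4, 19.8 and 13.3 at P21 and 2.30, 2.37, 11.6, 6.95 and 2.31 at P70, and values this low stand for a few reads. Its mean over the 20 mice was 10.5, above the limit of 10 only through P21. The P21 means were 13.4 in WT and 17.2 in KO, against 6.41 in P70 WT. The filter thus favoured a fall with age in this gene, which limits what its age calls show. The ages overlapped in WT and not in KO. P70 minus P21 was, in log2 units, -1.09 ± 0.39 in WT (limma adjusted p = 0.074) and -1.79 ± 0.39 in KO (limma adjusted p = 0.00366), with an interaction of -0.70 ± 0.55 (limma adjusted p = 1). The WT difference passed the test without P70 WT replicate 4 (limma adjusted p = 0.0346), without P70 KO replicate 3 (limma adjusted p = 0.0433) and without both replicate 5 mice (limma adjusted p = 0.046).

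Kif14, needed for the last step of cell division, was 19.1, 18.0, 12.4, 17.9 and 12.3 in P21 WT and 8.40, 8.12, 13.6, 13.6 and 7.74 in P70 WT mice. In KO mice Kif14 was 75.2, 22.8, 17.0, 28.9 and 15.0 at P21 and 20.1, 15.4, 12.6, 9.50 and 3.79 at P70. The ages overlapped in both genotypes, and P21 KO replicate 1 was far above all other mice. As a log2 fold change the difference was -1.21 ± 0.39 in KO (limma adjusted p = 0.0497) and -0.60 ± 0.39 in WT (limma adjusted p = 0.379). Without both replicate 5 mice the KO value was -0.88 and no longer called (limma adjusted p = 0.0895). The KO call was also lost in 15 of 20 fits that left 1 mouse out (limma adjusted p 0.0543 to 0.154), that without P21 KO replicate 1 included.

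Kif22, a chromosome-bound motor and the most abundant mitotic kinesin per kb, was 128, 189.9, 157, 158 and 140.4 in P21 WT and 99.6, 164, 131, 228 and 139 in P70 WT mice. Kif22 was 174, 120.3, 154, 219.7 and 207 in P21 KO and 172, 129, 120.4, 207 and 172 in P70 KO mice. The ages overlapped, with 95% intervals of the log2 fold change of -0.48 to 0.35 in WT and -0.54 to 0.29 in KO. The other mitotic members, Kif4, Kif15, Kif18a, Kif20a, Kif20b and Kif23, had log2 fold changes from -1.03 to 0.48 in WT and from -0.88 to -0.26 in KO. Kif20a, a motor of cytokinesis named after its values were seen, was not called with all mice. In WT it was called without both replicate 5 mice, at -1.20 (limma adjusted p = 0.0327), and also without P21 WT replicate 1, P70 KO replicate 1 or P70 WT replicate 5 (limma adjusted p 0.0399 to 0.0494). Kif20b was called lower in KO without P21 KO replicate 3 (limma adjusted p = 0.0298). Kif2c, which acts at centromeres, had a mean under 10 over the 20 mice and ranged from 1.33 to 18.0.

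The promoters shown are those of Kif11 and Kif18b, the mitotic kinesins with the smallest adjusted p for age in KO mice. Kif18b reached the mean of 10 only through its P21 values, so the filter favoured its small p. The choice thus serves display only. Genes of mitosis often carry 2 short motifs. These are the CCAAT box (CCAAT) and the cell cycle homology region (TTTGAA). Each window holds the 120 bases before the RefSeq transcript start in GRCm38.p6, 5′ to 3′ on the strand of the gene, with motif matches on either strand in capitals. The Kif11 window is chr19:37376262-37376381 on the plus strand and the Kif18b window is chr11:102925125-102925244 on the minus strand. Each lies outside the annotated span of its own gene.
Kif11: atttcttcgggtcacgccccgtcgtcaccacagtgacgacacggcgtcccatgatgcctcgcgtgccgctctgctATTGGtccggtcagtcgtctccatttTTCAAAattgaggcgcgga
Kif18b: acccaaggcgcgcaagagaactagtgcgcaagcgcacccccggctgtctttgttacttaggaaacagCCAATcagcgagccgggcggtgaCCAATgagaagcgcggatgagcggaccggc
In Kif11 both matches lay on the opposite strand. In Kif18b both matches were CCAAT, and no TTTGAA lay in the window.

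The 250 bases before the start were searched on both strands, and a gene counted if any of its promoter entries held a match. TTTGAA was found in 5 of the 10 mitotic kinesins with a promoter entry (Kif11, Kif14, Kif15, Kif22 and Kif2c). It was found in 3 of 20 other kinesin genes, and in 18.3% of all 27025 genes with an entry. CCAAT was found in 6 of the 10 (Kif11, Kif14, Kif18b, Kif22, Kif23 and Kif4), in 8 of the 20 others, and in 37.5% of all genes with an entry. Neither motif overlaps the other in its letters, and a match describes the sequence only.

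**Figure D3:**
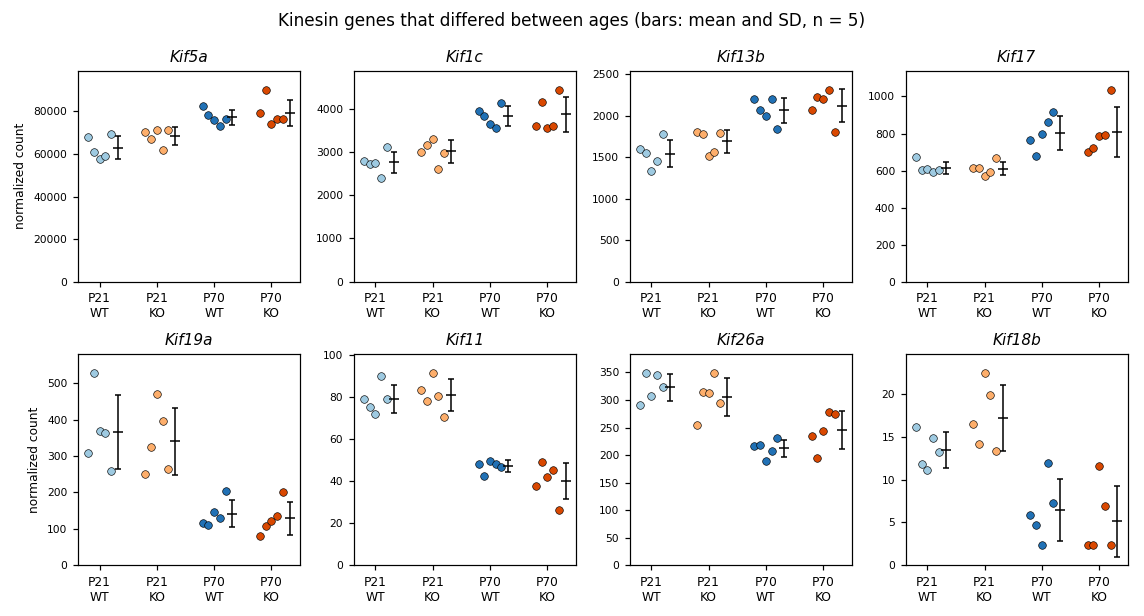
Normalized count (linear axis from 0) of 8 kinesin genes in each mouse by group; points are mice and bars are the mean and SD of 5 mice. Kif5a, Kif1c, Kif13b and Kif17 are higher and Kif19a and Kif11 lower at P70 with no overlap in either genotype, whereas Kif26a overlaps in KO and Kif18b in WT mice.

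Among the motile cilia genes 1 of 4 fell in both genotypes, where 4.12% of all genes did (6.99% without both replicate 5 mice of P70). Kif19a, which shortens axonemal microtubules and so limits the length of motile cilia, had the largest fall called in WT mice. Kif19a was 307, 528, 369, 363 and 258 in P21 WT and 117, 109.7, 145, 129 and 203 in P70 WT mice. Kif19a in KO mice was 249, 326, 470.3, 396 and 265 at P21 and 79.0, 108, 122, 135 and 201 at P70. The highest P70 mice were the replicate 5 mice, and even they lay below every P21 mouse. The log2 fold change was -1.36 ± 0.23 in WT, 2.57-fold lower (limma adjusted p = 0.00052), and -1.42 ± 0.23 in KO, 2.68-fold lower (limma adjusted p = 0.00029). Of 10 markers of ependymal cells, the cells that bear motile cilia on the ventricle wall, 0 were called by limma in either genotype, where 11.1% of all genes were in WT and 11.9% in KO. In each genotype 2 of 10 had an unadjusted p under 0.05, where 24.4% of all genes did in WT and 24.8% in KO. Log2 fold changes were above 0 for 8 of the 10 in WT (median 0.26) and 9 in KO (median 0.19). Their summed level ranged from 750.4 to 878 in P21 WT and 728 to 1219 in P70 WT mice, and from 829.5 to 1208 in P21 KO and 860.5 to 1320 in P70 KO mice, with none at 0 in any mouse. The part of ependymal cells in the Kif19a difference was not tested.

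The other cilia members were not called with all mice. Kif27 was 66.2, 92.4, 108, 99.6 and 112 in P21 WT and 118, 100.2, 77.4, 122 and 107 in P70 WT mice. Kif27 in KO mice was 66.3, 84.1, 81.9, 69.4 and 82.3 at P21 and 109.8, 85.0, 127, 117 and 96.9 at P70. The KO ages did not overlap and the WT ages did. P70 minus P21 was, in log2 units, 0.47 ± 0.15 in KO (limma adjusted p = 0.0505) and 0.13 ± 0.15 in WT (limma adjusted p = 0.645), and the KO value without both replicate 5 mice was 0.50 (limma adjusted p = 0.0348). The Kif27 difference in KO was also called in 4 of 20 fits that left 1 mouse out, without P21 WT replicate 1, P70 KO replicates 2 or 5 or P70 WT replicate 3 (limma adjusted p 0.0298 to 0.0431). Kif6 and Kif9, both found in ciliary axonemes, had log2 fold changes of 0.15 and 0.14 in WT and 0.18 and 0.0016 in KO.

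Of the remaining 3 members Kif26a fell in both genotypes, where 4.12% of all genes did. Kif26a, a kinesin-like protein without motor activity, was 290.3, 349, 308, 346 and 323 in P21 WT and 216, 218, 188, 208 and 230.4 in P70 WT mice. Kif26a in KO mice was 254, 314, 312, 349 and 295 at P21 and 234, 194, 244, 278 and 275 at P70. The ages did not overlap in WT and overlapped in KO, where P21 replicate 1 lay within the P70 range. As a log2 fold change the difference was -0.60 ± 0.10 in WT, 1.52-fold lower (limma adjusted p = 0.000472), and -0.32 ± 0.10 in KO (limma adjusted p = 0.0477). The KO call was lost in 15 of 20 fits that left 1 mouse out (limma adjusted p 0.0522 to 0.141), that is in all but those without P21 KO replicate 1, P70 KO replicates 4 and 5 or P70 WT replicates 3 and 5.

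Kif1bp was 4097, 4029, 4359, 3868 and 4008 in P21 WT and 3637, 3861, 3888, 3825 and 3737 in P70 WT mice. Kif1bp was 3807, 4044, 4377, 3898 and 4047 in P21 KO and 3874, 3847, 3864, 3858 and 3869 in P70 KO mice. The 5 P70 KO mice lay within a narrow band, and the ages overlapped. The 95% interval of the log2 fold change was -0.20 to -0.0048 in WT and -0.16 to 0.037 in KO. Kif26b had a log2 fold change of 0.082 in WT and -0.11 in KO.

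Katnal2 KO left no kinesin gene past the test at either age. At P21, 0 of 36 kinesin genes were called by limma, as were 0 of all 17610 genes (0%), and 0 of 36 had an unadjusted p under 0.05 where 2.44% of all genes did. At P70, 0 of 34 were called, as were 0 of 17613 genes (0%), and 1 of 34 had an unadjusted p under 0.05 where 1.13% of all genes did. Without both replicate 5 mice, 0 of 34 were called at P70 (1 at an unadjusted p under 0.05), where 1 of 17650 genes was (0.00567%). In no kinesin gene were KO and WT mice fully apart, against 0.46% of all genes at P21 and 0.193% at P70. The log2 difference, KO minus WT, was within 0.25 of 0 in 30 of 36 at P21 and 29 of 34 at P70. The 95% interval of Kif5a was -0.019 to 0.26 at P21 and -0.11 to 0.18 at P70, Kif1a -0.19 to 0.24 and -0.13 to 0.15, and Kif5c -0.087 to 0.096 and -0.35 to 0.27. It was -0.033 to 0.19 and -0.53 to 0.43 for Kif5b and -0.14 to 0.14 and -0.38 to 0.26 for Kif1b, and so wider at P70 for Kif5b, Kif1b and Kif5c.

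**Figure D4:**
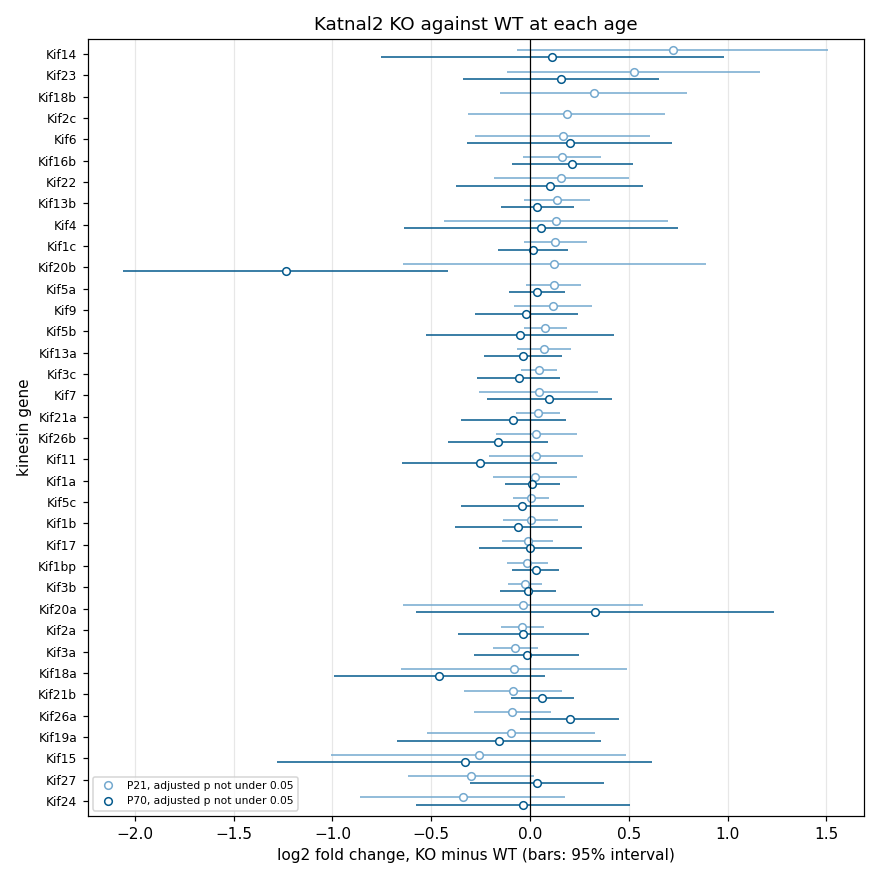
log2 fold change (KO minus WT) of each kinesin gene at P21 (light) and P70 (dark), with bars as 95% intervals; no point has a limma adjusted p under 0.05. Only the Kif20b interval at P70 lies wholly on one side of 0, and Kif18b and Kif2c have no P70 point because their mean was under 10 there.

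The smallest unadjusted p at P21 belonged to Kif27, Kif14 and Kif5a, whose values in every mouse are given above. Kif27 was lower in KO by a log2 difference of -0.30 ± 0.15 (limma adjusted p = 1). Kif14 had 0.72 ± 0.37 (limma adjusted p = 1), which became 0.353 without P21 KO replicate 1. Kif5a had 0.12 ± 0.064 (limma adjusted p = 1). KO and WT mice overlapped in all 3 genes.

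At P70 the smallest belonged to Kif20b, Kif18a and Kif26a. Kif20b, which acts in cytokinesis, was 56.8, 35.0, 30.1, 30.7 and 24.7 in P70 WT and 25.5, 6.71, 7.53, 19.4 and 19.4 in P70 KO mice. At P21 Kif20b was 22.5, 20.2, 28.0, 34.6 and 18.6 in WT and 24.6, 32.6, 9.55, 30.8 and 52.3 in KO mice. The P70 KO mice were lower on the whole, with KO replicate 1 inside the WT range. The log2 difference at P70 was -1.24 ± 0.38, with a 95% interval of -2.06 to -0.41 (limma adjusted p = 1).

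Kif18a, which aligns chromosomes, was 22.2, 18.1, 28.8, 27.5 and 38.8 in P70 WT and 20.6, 19.2, 17.5, 24.7 and 13.6 in P70 KO mice. Kif18a at P21 was 31.8, 15.6, 34.4, 29.2 and 33.2 in WT and 21.3, 32.5, 29.6, 36.6 and 16.4 in KO mice. The genotypes overlapped at both ages. The log2 difference at P70 was -0.46 ± 0.24 (limma adjusted p = 1), and -0.21 without both replicate 5 mice. Kif26a had 0.20 ± 0.12 at P70 (limma adjusted p = 1).

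The age difference itself did not differ between genotypes past the test for any kinesin gene. The interaction was called by limma in 0 of 35 kinesin genes and 0 of 17637 genes (0%), and at an unadjusted p under 0.05 in 1 of 35 where 1.68% of all genes were. Kif20b had the smallest p, with an age difference lower in KO by -1.36 ± 0.55 (limma adjusted p = 1). Kif26a had 0.29 ± 0.14 (limma adjusted p = 1) and Kif27 had 0.33 ± 0.22 (limma adjusted p = 1). The age differences in WT and in KO were taken from different mice, but both were tested in a single fit with a shared estimate of the spread. Their p-values are therefore not independent, and a call in both genotypes does not stand for separate tests. Each age comparison also shares its groups with the genotype comparisons.

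The replicate 5 mice of P70 lay at the bottom of their groups for some kinesin genes and at the top for others. Among kinesin genes tested, 11 of 35 (31.4%) were lowest in replicate 5 of both P70 groups, where 28.4% of all genes were, and 4 of 35 (11.4%) were highest in both, where 29.3% were. The 11 were Kif5b, Kif5c, Kif1b, Kif13b, Kif2a, Kif3a, Kif3b, Kif3c, Kif21a, Kif26b and Kif14. Kif17, Kif19a, Kif1c and Kif7 were the 4. Kif5b moved most among the abundant members, at 48.3% of the mean of the other 4 P70 KO mice and 60.8% of the other 4 P70 WT mice. Kif5a was near the others, at 95.6% and 98.4%, as was Kif1a at 96.2% and 94.6%.

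The deviations of the replicate 5 mice also went with transcript length over all genes. Over the 25% of genes with the longest protein-coding transcript, the median deviation of replicate 5 from its group mean was -0.282 in P70 KO and -0.221 in P70 WT on the log2 scale, and over the 25% with the shortest it was 0.278 and 0.258. Such deviations were not limited to these mice. In P21 replicate 3 they were -0.101 in KO and -0.122 in WT over the longest, and 0.13 and 0.139 over the shortest. P70 KO replicate 1 went the other way, at 0.111 over the longest and -0.118 over the shortest. Of the 35 kinesin genes 23 were in the longest 25% and 0 in the shortest. The part of transcript length in the kinesin values was not tested.

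**Figure D5:**
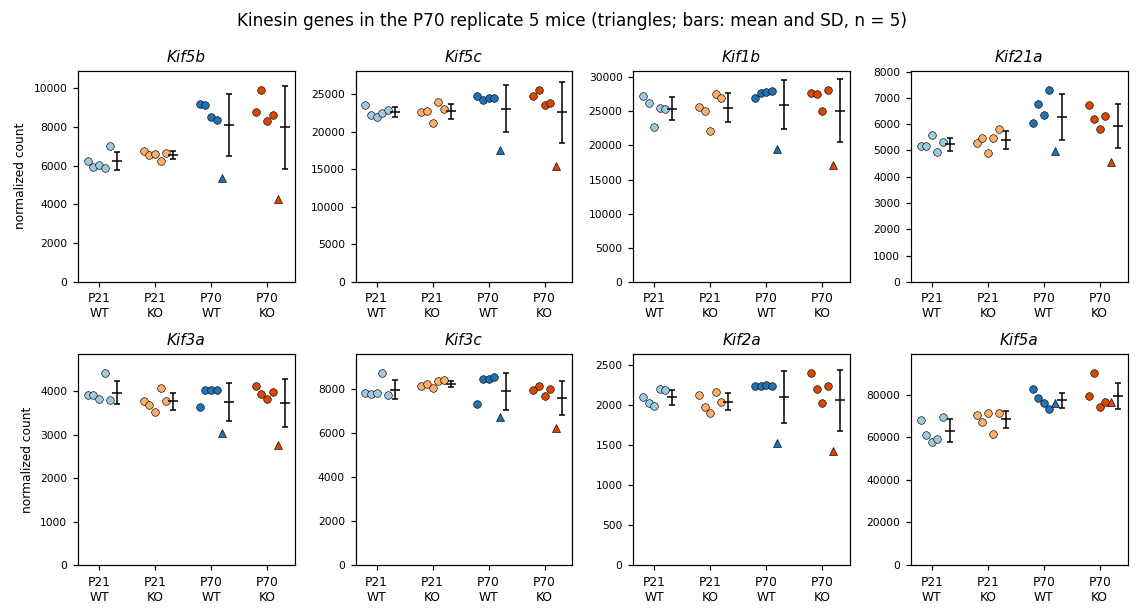
Normalized count (linear axis from 0) of 8 kinesin genes in each mouse by group; points are mice, triangles are the replicate 5 mice of P70, and bars are the mean and SD of 5 mice. The triangles lie at the bottom of the P70 groups for Kif5b, Kif5c, Kif1b, Kif21a, Kif3a, Kif3c and Kif2a, and among the other mice for Kif5a.

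Of 22 partner and adaptor genes of the kinesins, 3 rose and 2 fell with age in WT, and 4 rose and 1 fell in KO, where 11.1% and 11.9% of all genes were called. In the absence of both replicate 5 mice, 5 rose and 3 fell in WT and 5 rose and 2 fell in KO, where 21.1% and 22% of all genes were called. Trak1 and Trak2, which tie mitochondria to kinesin-1, went opposite ways: Trak1 rose by 0.28 in WT (limma adjusted p = 0.00236) and 0.28 in KO (limma adjusted p = 0.00289). The log2 fold change of Trak2 was -0.38 in WT (limma adjusted p = 0.0103) and -0.44 in KO (limma adjusted p = 0.00338). Plekhm2, which links lysosomes to kinesin-1, rose by 0.38 in WT (limma adjusted p = 0.0208) and 0.40 in KO (limma adjusted p = 0.0154). Its WT call was lost without P21 WT replicate 4 or P70 WT replicate 5 (limma adjusted p 0.0535 to 0.0594) and its KO call without P21 KO replicate 4 (limma adjusted p = 0.05004). The others called were named after their values were seen: light chain gene Klc2 rose and Fez1 fell in WT, and Hap1 and Rhot2 rose in KO, with limma adjusted p of 0.0406, 0.048, 0.0424 and 0.0112 in that order.

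Kinesins whose symbols do not begin with Kif and a digit, 5 in all, had 0 calls in WT (1 at an unadjusted p under 0.05, limma) and 1 in KO. Over all genes 11.1% were called in WT and 11.9% in KO. The kinesin called was Kifc3, a minus-end motor, at 0.50 in KO (limma adjusted p = 0.00871) and 0.27 in WT (limma adjusted p = 0.176). Kifc1 and Stard9 had 0.18 and -0.044 in WT. Of 23 genes of cytoplasmic dynein and dynactin, which drive the opposite, inward transport, 1 rose and 0 fell in each genotype with all mice. Leaving out the P70 replicate 5 mice, 1 rose and 6 fell in WT and 2 rose and 5 fell in KO. In that setting calls also went up over all genes, to 11.2% higher and 9.97% lower in WT and 10.9% higher and 11.1% lower in KO. The gene called with all mice was Ndel1, a dynein regulator, at 0.17 in WT and 0.19 in KO (limma adjusted p = 0.0246 and 0.0144). The Ndel1 call was lost in 6 of 20 fits that left 1 mouse out in WT (limma adjusted p 0.0547 to 0.0625; P21 WT replicates 1, 3 and 4 and P70 WT replicates 1, 2 and 4) and in KO without P21 KO replicate 4 (limma adjusted p = 0.0501).

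Genes of other cell type lists were also called between ages, where 11.1% of all genes were in WT and 11.9% in KO. Counts such as 1 of 6 or 1 of 7 are near those shares and are not read as a change of the cell type. The part of these cells in the kinesin differences was not tested. Of 10 myelin genes 9 fell in each genotype, with a summed level of 408686 to 461117 in P21 WT and 173559 to 197971 in P70 WT mice, and 4 of 5 genes of oligodendrocyte precursors fell in each. Of 7 immature neuron genes 3 fell in WT, and 4 fell and 1 rose in KO. Of 10 neuron genes 1 rose and 2 fell in WT, and 2 rose and 2 fell in KO, with summed levels of 193729 to 198458 in P21 WT and 190825 to 208295 in P70 WT mice. Blood genes fell in 5 of 5 in each genotype. Choroid plexus genes rose in 2 of 7 in WT and 1 of 7 in KO, 1 of 6 endothelial genes fell in each (without both replicate 5 mice 4 fell in WT, and 2 fell and 1 rose in KO), and 0 of 7 astrocyte and 0 of 6 microglial genes were called in either (limma, and at an unadjusted p under 0.05, 1 of each in WT and 0 in KO). Other counts also changed without those mice, where 21.1% of all genes were called in WT and 22% in KO. All 5 precursor genes then fell in each genotype, and 2 choroid plexus genes rose in KO. In WT 1 immature neuron gene and 2 neuron genes rose, and in KO 3 neuron genes fell. Of astrocyte genes 1 rose in each genotype, and 1 microglial gene fell in WT.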

How the data were processed

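RNA from whole brains of 20 male mice, 5 in each of 4 groups, was prepared with a TruSeq kit and sequenced. The authors quantified transcripts with Salmon against GRCm38, summed them per gene and scaled them with DESeq2, so the deposited signal values are normalized counts (the submitters' processing notes list Salmon 1.1.0, R 3.6.2 and DESeq2 1.26.0). Group and replicate were taken from sample titles. Because whole reads cannot be read back from such values, limma 3.58.1 in R 4.3.3 (lmFit, eBayes with an intensity trend) was run on log2(value + 1) in place of a count test, on genes whose mean reached 10, with p-values adjusted by Benjamini-Hochberg over all of them and called under 0.05. Genotypes were compared at each age in a fit of its own, and ages and the interaction in a single fit of 20 mice. Symbols, coordinates and exon lengths were from GENCODE M21 (GRCm38), and promoters from RefSeq GRCm38.p6, with an entry for 30 kinesin genes. The fits were tested on simulated data.

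The kinesin genes, partner lists and marker lists were chosen with earlier results of these data known. Values in every mouse were given for members called in both age comparisons in the same direction, for the 3 members with the smallest p in each genotype comparison and the interaction, for the kinesin-1 heavy chains and for the most abundant member of each other role. From each partner list up to 3 genes were named, by the smallest p with age in WT. A gene outside this rule is said to be named after its values were seen. Of the marker lists only counts and summed levels are given. Alternatives were other pseudocounts, filters and scalings, no trend, a replicate block, other fits, and each mouse left out in turn. Leaving out both replicate 5 mice of P70 was chosen after seeing the data.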

Additional observations from a re-analysis of the deposited data

Results flagged for a closer look

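In 20 of 144 groups of 5 mice, the highest or lowest mouse of a kinesin gene lay farther from the rest than Dixon's 95% limit allows. That limit, a gap of over 0.71 of the range, is set to flag about 1 group in 20. The share flagged over all genes was not counted, and the same mice enter for every gene. The count is therefore not shown to be particular to kinesin genes. Of the 20, 11 were replicate 5 mice of P70, which stood apart over all genes as well. The lowest mice were Kif5b at 4300.4 in P70 KO and 5358 in P70 WT, Kif5c at 15496 and 17531, Kif1b at 17110 and 19505, Kif3a at 2750.4 and Kif3c at 6246 in P70 KO, and Kif2a at 1518 in P70 WT. The highest were Kif17 at 1035 in P70 KO and Kif2c at 12.0 in P70 WT. The other 9 were P21 mice. The highest mouse was Kif14 at 75.2 and Kif9 at 175 in P21 KO, and Kif17 at 673, Kif3a at 4411, Kif3c at 8731 and Kif6 at 90.4 in P21 WT, with Kif3a and Kif3c both in replicate 4. The lowest was Kif18a at 15.6, Kif24 at 33.8 and Kif2c at 9.61 in P21 WT.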

How the results depend on the processing

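Of 83 results, 2182 of 2312 recomputed values kept their direction and stayed on the same side of the threshold or within 1.5 times the count, and 24 changed direction, all for uncalled age differences near 0. Without both replicate 5 mice, Kif3c in WT became 0.039, Kif2a 0.097 in WT and 0.12 in KO, and Kif5c 0.10 in KO, and with quantile normalization Kif5c in WT became -0.029. Over fits that left out 1 mouse, the WT value ranged from -0.012 to 0.11 for Kif5c, -0.22 to 0.075 for Kif22, -0.029 to 0.10 for Kif1a, -0.049 to 0.039 for Kif3c, -0.044 to 0.097 for Kif2a and -0.28 to 0.045 for Kif18a, and the KO value from -0.077 to 0.10 for Kif5c, -0.022 to 0.089 for Kif1a and -0.070 to 0.12 for Kif2a. The 0 calls for genotype at each age and for the interaction held in every alternative run. Without both replicate 5 mice of P70, 12 kinesin genes were called between ages in WT, 7 higher and 5 lower, and 7 were called higher in KO. The 5 called lower in KO became 3 with no filter on low values, with a mean of at least 50, with values scaled to the same sum and with KO mice fitted by themselves; over fits that left out 1 mouse they ranged from 3 to 5. The call of Kif14 in KO was lost in 6 settings other than leaving out 1 mouse (limma adjusted p 0.0504 to 0.147), that of Kif26a in KO in 4 such settings (limma adjusted p 0.0528 to 0.129) and that of Kif5a in KO in 2, without the trend and with KO mice fitted by themselves (limma adjusted p 0.0543 to 0.0826). Over fits that left out 1 mouse, calls ranged from 7 to 10 in WT, from 6 to 10 in KO, and from 28 to 47 and 29 to 51 among partner and marker genes. Same-numbered KO and WT mice correlated in their deviations by r = -0.00913 to 0.26 at P21 and by 0.0749 to 0.705 at P70, with 0.705 in pair 5. Not every pair was over 0.1 at either age, which was the criterion, so the numbers were not taken to pair the mice. Of 10 mice, 5 at P21 and 7 at P70 correlated best with the mouse of their own number. With the replicate block, 8 kinesin genes were called in WT, Kif20a among them, and 9 in KO, and 0 of all genes by genotype (732 at P21 and 610 at P70 at an unadjusted p under 0.05, against 429 and 199 without it). Kif2c in the age comparisons, and Kif18b and Kif2c at P70, had a mean under 10 and were not tested.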
